A study of Mus musculus with 14 samples.

Results

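The C/EBP (CCAAT/enhancer-binding protein) transcription factors were followed through 14 mouse arrays of cultured hepatoblasts, the fetal liver progenitors of hepatocytes and bile duct cells. The family was taken as 4 genes, Cebpa, Cebpb, Cebpd and Cebpg, chosen by gene symbol, of 12393 genes that the array measured under a single symbol. They were read by 8 probe sets, and each gene was represented by its probe set with the highest mean over the 14 arrays. The other 4 served as a check. The groups were IDH1 R132C cells and empty vector cells on uncoated plates, then, on collagen, cells with IDH2 R172K, wild-type IDH2, IDH1 R132C, wild-type IDH1 and empty vector. R132C and R172K are mutant forms of the isocitrate dehydrogenases IDH1 and IDH2. Each of the 7 groups had 2 cultures.

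All cells were hepatoblasts of wild-type mice from embryonic day 14, immortalised by plating them sparsely enough to grow as clones. The labels do not say whether all cultures go back to 1 clone. The IDH forms and the vector belonged to a doxycycline-inducible system, with doxycycline at 25 ng/mL in the IDH1 experiments. They do not say whether vector and IDH2 cultures received it too. Uncoated dishes, used for at most 5 days, served to test differentiation towards hepatocytes. The labels do not say how long collagen cultures were kept, so any difference in time cannot be told apart from the plate itself. The wild-type IDH forms were grown on collagen only, so the plate effect was measured in vector and R132C cells.

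C/EBP proteins bind DNA as pairs through a basic region and a leucine zipper (bZIP), and they pair with each other and with some other bZIP proteins. C/EBP alpha is abundant in hepatocytes, where it drives metabolic and plasma protein genes and restrains cell division. C/EBP beta and C/EBP delta are known for the acute-phase response of the liver, in which interleukin 6 and related cytokines raise both. C/EBP gamma lacks an activation domain of its own, and works as a partner of other C/EBP proteins or of ATF4 in the response to amino acid shortage.

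RefSeq promoter windows (build GRCm38.p6) were given for 3 of the 4 genes, and their 250 bases before the annotated start are shown because they were searched for motifs of the factors known to act on this family. Capitals mark every match found.
Cebpa, chr7:35119043-35119292, plus strand: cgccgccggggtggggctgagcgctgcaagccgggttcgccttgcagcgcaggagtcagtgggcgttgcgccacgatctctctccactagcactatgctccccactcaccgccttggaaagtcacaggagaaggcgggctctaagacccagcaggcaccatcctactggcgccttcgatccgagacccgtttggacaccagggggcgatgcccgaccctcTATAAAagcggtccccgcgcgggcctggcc
Cebpb, chr2:167688665-167688914, plus strand: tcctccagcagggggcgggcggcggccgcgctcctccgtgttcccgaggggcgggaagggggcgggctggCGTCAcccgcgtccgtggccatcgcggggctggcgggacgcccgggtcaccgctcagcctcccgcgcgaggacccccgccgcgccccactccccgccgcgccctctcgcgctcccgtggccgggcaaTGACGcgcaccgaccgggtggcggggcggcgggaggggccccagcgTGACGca
Cebpg, chr7:35056567-35056816, minus strand: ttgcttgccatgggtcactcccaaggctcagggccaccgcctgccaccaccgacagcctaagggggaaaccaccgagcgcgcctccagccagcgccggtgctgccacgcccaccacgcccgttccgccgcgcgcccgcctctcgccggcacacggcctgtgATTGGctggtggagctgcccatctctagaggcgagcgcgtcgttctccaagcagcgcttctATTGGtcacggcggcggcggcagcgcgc

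The Cebpa window held a TATA box, TATAAA, at bases -30 to -25 counted from the start, a motif present in 12.4% of all 32851 windows of the same length. The Cebpb window held 3 copies of TGACG, the core of the cAMP response element, at -180 to -176 on the minus strand and at -53 to -49 and -7 to -3 on the plus strand. That motif was present in 17.8% of windows. The Cebpg window held 2 CCAAT boxes, CCAAT, both on the minus strand, at -89 to -85 and -28 to -24, a motif present in 33.8% of windows. The windows were rich in G and C, with 66.4% for Cebpa, 81.6% for Cebpb and 70.8% for Cebpg, against a median of 52.4% over all windows.

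No match in any of the 3 windows was found for the other 8 motifs searched on both strands. These were the C/EBP palindrome TTGCGCAA (0.164% of all windows), a looser C/EBP form TTNNGNAA (36.8%), which also takes in the palindrome, and the C/EBP-ATF element TGATGNAA (3.45%). The full cAMP response element TGACGTCA (1.55%) contains that core. STAT sites were searched as TTCNNNGAA (7.02%), AP-1 sites as TGANTCA (6.75%), HNF4 sites as CAAAGTCCA (0.384%) and E-boxes as CACGTG (6.02%). Cebpa and Cebpg are neighbours on chromosome 7, where their starts lie 62.7 kb apart on opposite strands with 1 predicted RefSeq gene between them. On the arrays their differences between plates had opposite signs, and of the 2 only that of Cebpa passed.

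Levels are given as log2 of the deposited intensity, and a level of 1 gene cannot be set against that of another, because probe sets differ in brightness. Cebpa stood at log2 8.04 and 8.54 in R132C cells on uncoated plates, and at 8.84 and 9.07 in vector cells on uncoated plates. On collagen it stood at log2 6.47 and 6.20 with R132C, 5.70 and 5.79 with R172K, 6.20 and 5.70 with wild-type IDH1, 6.05 and 5.69 with wild-type IDH2 and 6.34 and 6.12 with vector. All 4 uncoated cultures lay above all 10 collagen cultures, with a gap between 6.47 and 8.04. In order, the group means were 8.96 ± 0.16 in vector cells on uncoated plates, 8.29 ± 0.35 with R132C on uncoated plates, and on collagen 6.34 ± 0.19 with R132C, 6.23 ± 0.16 with vector, 5.95 ± 0.35 with wild-type IDH1, 5.87 ± 0.25 with wild-type IDH2 and 5.74 ± 0.064 with R172K (log2, SD, n = 2 each). On collagen each group overlapped its neighbours in this order.

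Cebpd had the same outline at a lower signal. It stood at log2 7.06 and 6.51 in R132C cells on uncoated plates, and at 6.82 and 7.0 in vector cells on uncoated plates. On collagen it stood at log2 4.84 and 4.85 with R172K, 4.23 and 4.48 with wild-type IDH2, 4.75 and 5.64 with R132C, 4.09 and 4.19 with wild-type IDH1 and 4.12 and 4.91 with vector. The 4 uncoated cultures again lay above every collagen culture, the nearest being R132C collagen replicate 2 at 5.64. The lower quartile of all non-control probe sets lay at log2 4.72 to 4.80 on these arrays. Most collagen values of Cebpd are thus near background and its folds are not exact. The group means ran from 6.91 ± 0.13 (vector, uncoated) and 6.78 ± 0.39 (R132C, uncoated) through 5.20 ± 0.63 (R132C, collagen), 4.85 ± 0.0037 (R172K), 4.51 ± 0.55 (vector, collagen) and 4.36 ± 0.18 (wild-type IDH2) to 4.14 ± 0.072 with wild-type IDH1 (log2, SD, n = 2 each). Neighbours overlapped, other than the 2 groups either side of the plate gap and the 2 wild-type IDH groups at the bottom, which lay below the lower quartile.

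Cebpb was bright in all 14 cultures and varied little. It stood at log2 12.08 and 12.22 in R132C cells and at 12.27 and 12.12 in vector cells on uncoated plates. On collagen it stood at log2 12.30 and 11.78 with R172K, 11.72 and 11.83 with wild-type IDH2, 11.82 and 11.87 with R132C, 11.62 and 11.99 with wild-type IDH1 and 11.71 and 11.97 with vector. Of the 10 collagen cultures, 9 lay below every uncoated culture, and R172K replicate 1 had the highest value of all 14. That array also had the lowest median intensity, 134.5 against up to 147.7 in the others. The correlation between the 2 R172K replicates, 0.994, was the lowest of the 7 groups, which does not tell the 2 arrays apart. The part of either in the Cebpb value of replicate 1 was not tested. In order, the group means were 12.20 ± 0.11 (vector, uncoated), 12.15 ± 0.098 (R132C, uncoated), 12.04 ± 0.37 (R172K), 11.84 ± 0.041 (R132C, collagen), 11.84 ± 0.18 (vector, collagen), 11.80 ± 0.26 (wild-type IDH1) and 11.77 ± 0.082 (wild-type IDH2) (log2, SD, n = 2 each). Every group overlapped its neighbours in this order, and the whole span of the means was smaller than the gap between the R172K cultures.

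Cebpg was lower on average on uncoated plates. It stood at log2 9.73 and 9.54 in R132C cells and at 9.62 and 9.43 in vector cells on uncoated plates. On collagen it stood at log2 9.79 and 9.99 with R172K, 9.68 and 9.89 with wild-type IDH2, 9.76 and 9.78 with R132C, 9.65 and 10.12 with wild-type IDH1 and 9.69 and 9.90 with vector. The lowest 3 values were all from uncoated plates, while R132C uncoated replicate 1 lay among the collagen cultures. The means were 9.89 ± 0.15 with R172K, 9.88 ± 0.33 with wild-type IDH1, 9.79 ± 0.15 with vector on collagen, 9.79 ± 0.15 with wild-type IDH2, 9.77 ± 0.012 with R132C on collagen, 9.64 ± 0.13 with R132C on uncoated plates and 9.52 ± 0.13 with vector on uncoated plates (log2, SD, n = 2 each). Neighbours overlapped, apart from the R132C cultures on either plate.

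**Figure D1:**
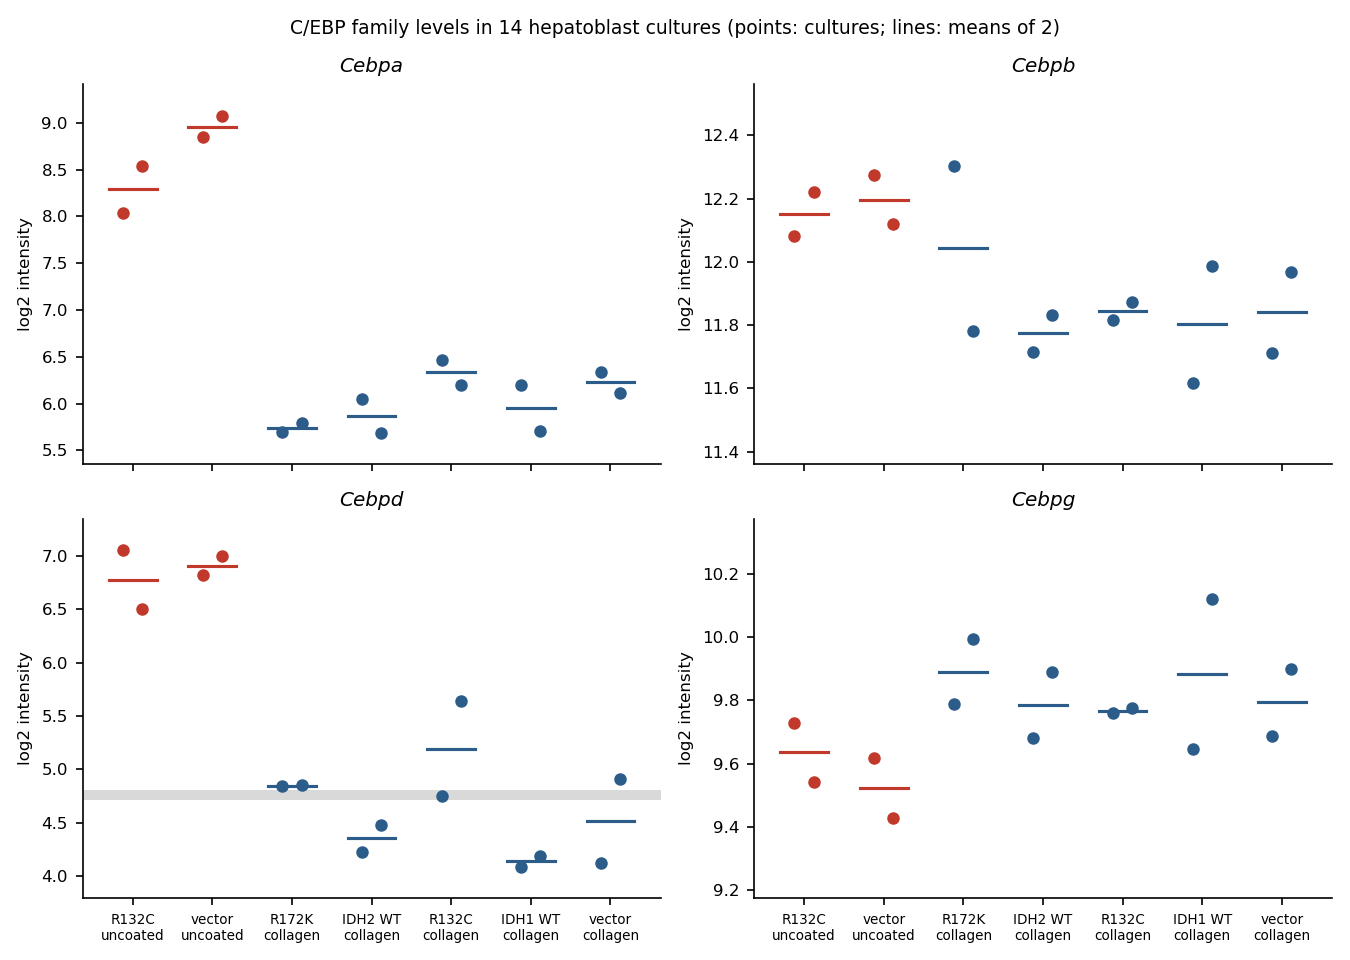
Levels of the 4 C/EBP genes (log2 intensity, vertical axes with their own ranges, none starting at 0) in each of the 14 cultures, by group. Points are cultures, red on uncoated plates and blue on collagen, lines are means of 2, and the grey band in the Cebpd panel is the lower quartile of the arrays. Cebpa and Cebpd lie higher in all 4 uncoated cultures, Cebpb slightly higher and Cebpg slightly lower with overlap.

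The first comparison asked how the family responded in control cells kept on uncoated plates, set against collagen. In vector cells Cebpa rose 6.63-fold (log2 difference 2.73, SE 0.20, adjusted p = 1.74e-06) and Cebpd rose 5.27-fold from its near-background level (log2 difference 2.40, SE 0.28, adjusted p = 5.28e-05). Cebpb was higher by log2 0.36 (SE 0.16, 95% interval 0.015 to 0.70), which did not pass (adjusted p = 0.115). Cebpg was lower by log2 0.27 (difference -0.27, SE 0.15, 95% interval -0.60 to 0.056), which did not pass (adjusted p = 0.219). These are limma values with Benjamini-Hochberg adjustment over 12393 genes, called at an adjusted p under 0.05. Calls covered 29.3% of all genes here, 15.1% higher and 14.2% lower, so 2 of 4 members called is a description and no mark of the family. By size, Cebpa ranked 45 among all genes in either direction. In these bulk cultures, more RNA per cell and more cells that hold the RNA cannot be told apart.

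In R132C cells the same 2 genes rose. Cebpa rose 3.87-fold (log2 difference 1.95, SE 0.20, adjusted p = 5.82e-05) and ranked 60 by size, and Cebpd rose 3.0-fold (log2 difference 1.59, SE 0.28, adjusted p = 0.00139). Cebpb differed by log2 0.31 (SE 0.16, adjusted p = 0.186) and Cebpg by log2 -0.13 (SE 0.15, adjusted p = 0.595), and neither passed. Calls covered 25.9% of genes in this comparison, 13.6% higher and 12.3% lower. In R132C and in vector cells the 2 uncoated cultures lay above their own 2 collagen cultures for Cebpa, Cebpb and Cebpd, and below them for Cebpg. The share of all genes that separate in this way was not counted, so this describes the cultures and is no mark of the family. The same limit holds for each statement of overlap between 2 groups below. Cebpb passed when the fit held only the arrays compared (adjusted p = 0.0496 in vector cells and 0.0120 in R132C cells), and in vector cells also when the R172K arrays were left out (adjusted p = 0.0407).

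A comparison added after the values were seen averaged both plate effects. Cebpa rose by log2 2.34 (SE 0.14, adjusted p = 2.19e-07) and Cebpd by log2 1.99 (SE 0.20, adjusted p = 6.20e-06). Cebpb rose by log2 0.33 (SE 0.11, adjusted p = 0.0301), or 1.26-fold, and Cebpg differed by log2 -0.20 (SE 0.11, adjusted p = 0.160). With 40.2% of all genes called in this average, 3 of 4 members is again a description. The Cebpb call ended on its other probe set (adjusted p = 0.0819) and after centring the arrays on their medians (adjusted p = 0.0646). It also ended without vector collagen replicate 1, vector uncoated replicate 1, either R132C collagen replicate or R132C uncoated replicate 2, with adjusted p of 0.0604 to 0.117.

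The next question was whether the plate response differed between R132C and vector cells. The response of Cebpa was smaller by log2 0.78 in R132C cells (difference -0.78, SE 0.29, 95% interval -1.40 to -0.15, adjusted p = 0.661). That of Cebpd differed by log2 -0.81 (SE 0.40, 95% interval -1.68 to 0.058, adjusted p = 0.949), that of Cebpb by log2 -0.050 (SE 0.22, 95% interval -0.53 to 0.43) and that of Cebpg by log2 0.14 (SE 0.21, 95% interval -0.32 to 0.60). None of the 4 passed, in a comparison that called 0.25% of all genes, 31 in number. All 31 had a negative term, the plate difference in R132C cells minus that in vector cells. Directly on uncoated plates, Cebpa averaged 8.29 ± 0.35 in R132C cells and 8.96 ± 0.16 in vector cells (log2, SD, n = 2 each), without overlap. The difference of log2 -0.67 (SE 0.20, 95% interval -1.11 to -0.22) did not pass (adjusted p = 0.124, where 2.39% of genes were called). Cebpb, Cebpd and Cebpg overlapped between these groups, with differences of log2 -0.046 (SE 0.16), -0.13 (SE 0.28) and 0.11 (SE 0.15).

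**Figure D2:**
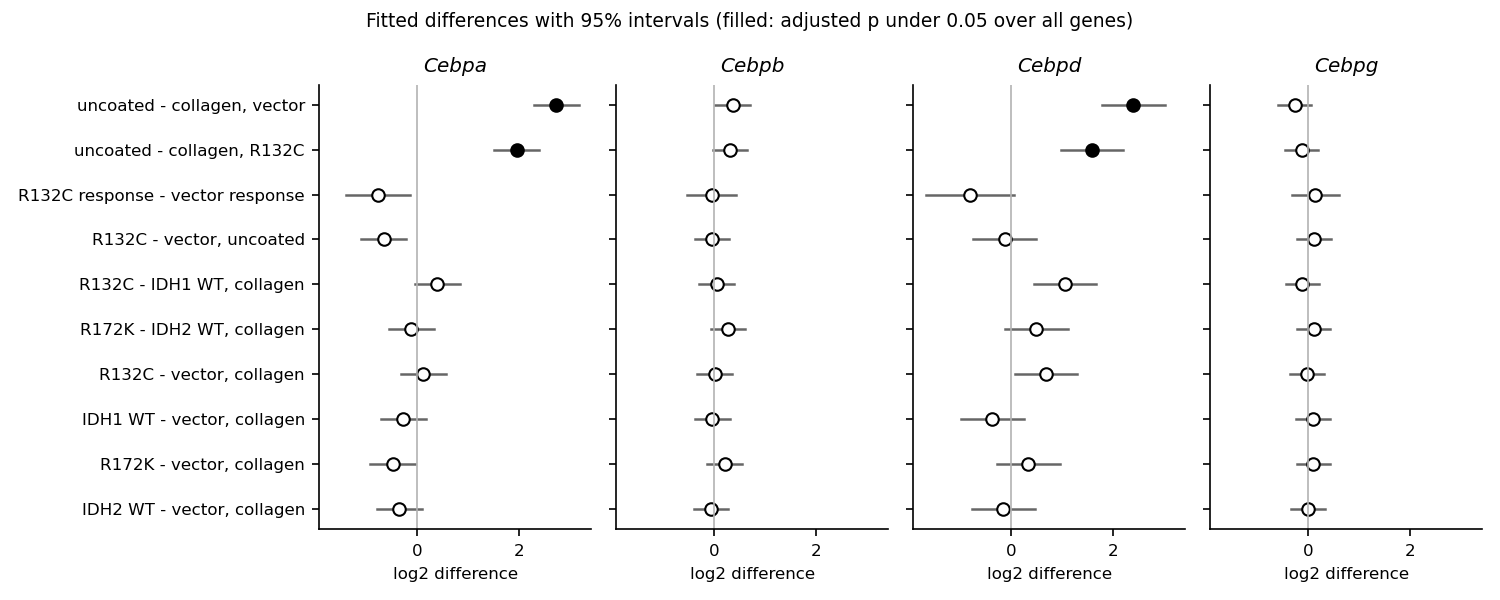
Fitted log2 differences of each C/EBP gene in 10 comparisons, the first-named group minus the second, with 95% intervals as bars. Filled points passed an adjusted p under 0.05, which only Cebpa and Cebpd did, in the comparisons of uncoated plates with collagen in vector and R132C cells.

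On collagen the question was whether the IDH forms themselves moved the family, and no member passed in any of the 6 comparisons. The largest of their differences was that of Cebpd. It stood at 4.75 and 5.64 with R132C, against 4.09 and 4.19 with wild-type IDH1, a difference of log2 1.06 (SE 0.28, 95% interval 0.44 to 1.67, adjusted p = 0.284). The R132C cultures lay above both wild-type IDH1 cultures, in a comparison that called 6 genes, or 0.0484%. The wild-type IDH1 values lie below the lower quartile of the arrays, so the size is not exact, and on the other Cebpd probe set the difference was log2 -0.018. On the probe set used, without R132C collagen replicate 2 it was log2 0.61, and without replicate 1 it was log2 1.5, both short of the threshold. With R172K, Cebpd was higher than with wild-type IDH2 by log2 0.49 (SE 0.28, 95% interval -0.12 to 1.11, adjusted p = 0.402), where 1.73% of genes were called. All 8 of these values lie near or below the lower quartile of the arrays apart from the R132C value of 5.64.

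Cebpa differed by log2 0.39 between R132C and wild-type IDH1 (SE 0.20, 95% interval -0.056 to 0.83, adjusted p = 0.714), without overlap of the cultures. Between R172K and wild-type IDH2 it differed by log2 -0.12 (SE 0.20, 95% interval -0.57 to 0.32, adjusted p = 0.787), with overlap. Against vector, Cebpa was lower with R172K by log2 0.48 (difference -0.48, SE 0.20, 95% interval -0.93 to -0.043, adjusted p = 0.197) and with wild-type IDH2 by log2 0.36 (difference -0.36, SE 0.20, 95% interval -0.80 to 0.082), both without overlap. R132C differed from vector by log2 0.11 (SE 0.20), with overlap, and the sign turned without R132C collagen replicate 1 (-0.025) or vector collagen replicate 2 (-0.0031). All 4 comparisons with vector share the same 2 vector cultures.

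On the probe sets used, Cebpb and Cebpg stayed within log2 0.27 of their comparators in all 6 comparisons on collagen. Cebpb differed most between R172K and wild-type IDH2, by log2 0.27 (SE 0.16, 95% interval -0.071 to 0.61, adjusted p = 0.407). Without R172K replicate 2 that difference came to log2 0.53 and passed (adjusted p = 0.0318), and without replicate 1 it came to log2 0.0092. The 2 R172K arrays thus decide this value. Cebpg differed most between R132C and wild-type IDH1, by log2 -0.12 (SE 0.15, 95% interval -0.44 to 0.21, adjusted p = 0.943). R172K against vector called 4.27% of genes. The comparisons of R132C, wild-type IDH1 and wild-type IDH2 with vector called 0% by limma, while 936, 128 and 116 genes had an unadjusted p under 0.05.

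The other probe sets showed the plate response in part. Cebpa is read by 1 probe set only. For Cebpb, 1427844_a_at correlated with the probe set used at r = 0.812 over the 14 arrays and gave differences of log2 0.22 in R132C cells and 0.39 in vector cells between uncoated plates and collagen, neither called. On it the R172K cultures stood at log2 9.28 and 9.20, so the high value of replicate 1 was not repeated. For Cebpd, 1456605_at lay between log2 4.63 and 5.02 on all 14 arrays, near the lower quartile, and its differences of log2 0.24 in R132C cells and 0.28 in vector cells did not pass (adjusted p = 0.137 and 0.0730). Averaged over R132C and vector cells, its difference passed at log2 0.26 (SE 0.075, adjusted p = 0.0157). The size of the rise of Cebpd thus rests on 1 probe set.

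For Cebpg, 1425261_at stood at log2 6.27 and 6.19 in R132C cells and 6.09 and 5.76 in vector cells on uncoated plates, against 6.44 and 6.57 in R132C cells and 6.52 and 6.56 in vector cells on collagen. On this probe set Cebpg fell in vector cells by 0.62 on the log2 scale (SE 0.20, adjusted p = 0.0396), and in R132C cells the difference was log2 -0.27 (SE 0.20). The third, 1451639_at, gave log2 0.057 in R132C cells and -0.052 in vector cells, with SE 0.17 each. The 3 probe sets of Cebpg therefore disagree on whether it changed, and the files do not say which transcript ends they read.

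**Figure D3:**
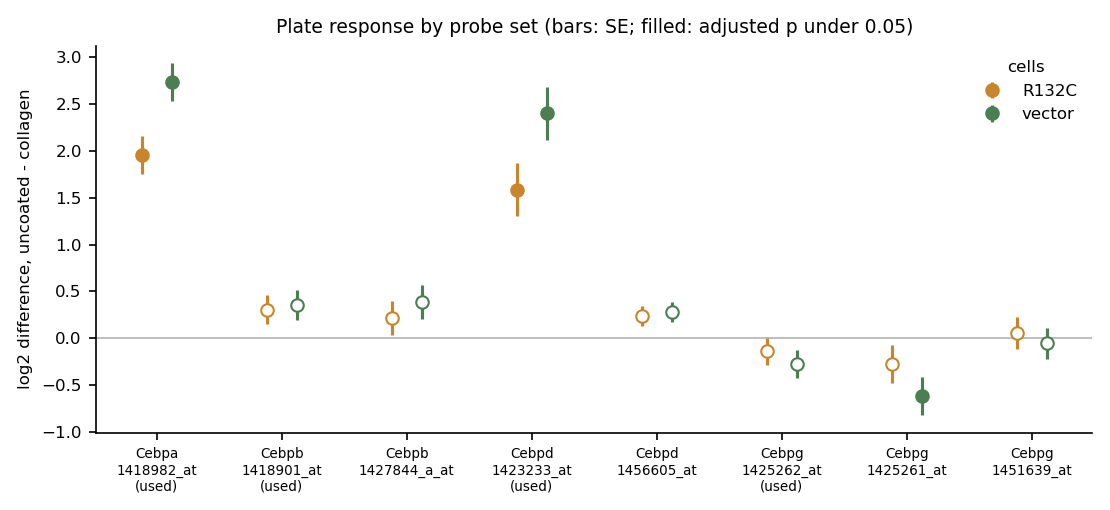
Difference between uncoated plates and collagen (log2) for each of the 8 C/EBP probe sets in R132C cells (orange) and vector cells (green), with SE as bars. Filled points passed an adjusted p under 0.05, over all genes for the probe sets used and over all non-control probe sets for the others. The rise of Cebpd passed on 1 of its 2 probe sets within R132C and vector cells and was smaller on the other, and the fall of Cebpg passed on 1 of 3, in vector cells.

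Genes around the family were taken from lists by the role their products have, and each count is set beside the share of all genes called the same way. In R132C cells these shares were 13.6% higher and 12.3% lower, and in vector cells 15.1% higher and 14.2% lower. The first list held 17 measured genes of the cytokine and glucocorticoid signalling that induces Cebpb and Cebpd, the feedback inhibitor Socs3 among them. On uncoated plates 7 of these rose in R132C cells and 9 in vector cells, and none fell. The rises were 41.2% and 52.9% of the list. The list medians were log2 0.40 in R132C cells and 0.36 in vector cells, beside -0.028 and -0.020 over all genes. Lifr, the leukaemia inhibitory factor receptor, averaged 8.96 ± 0.13 with R132C and 8.11 ± 0.24 with vector on uncoated plates, against 6.97 ± 0.42 with R132C and 6.09 ± 0.26 with vector on collagen (log2, SD, n = 2 each). It rose by log2 1.99 in R132C cells (SE 0.20, adjusted p = 5.43e-05) and by log2 2.02 in vector cells (SE 0.20, adjusted p = 1.58e-05). Lifr was also higher with the mutants on collagen, by log2 1.31 with R132C over wild-type IDH1 (adjusted p = 0.0471) and by log2 1.03 with R172K over wild-type IDH2 (adjusted p = 0.0258). The first of these calls was lost without any 1 of its 4 cultures, and the second without either wild-type IDH2 replicate or R172K replicate 1. Both were also lost when the probe sets of each gene were averaged. The first was lost as well under cyclic loess, median centring, no intensity trend, only the arrays compared and without the R172K arrays. Array weights ended the second. Over all alternatives the differences went as low as log2 0.51 and 0.52.

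The signalling factor Stat3, which carries the interleukin 6 signal to the nucleus, rose by log2 0.76 in R132C cells and 0.85 in vector cells (SE 0.15 each). The tumour necrosis factor receptor Tnfrsf1a rose by log2 0.73 in R132C cells and 0.69 in vector cells (SE 0.11 each). Il6ra, the interleukin 6 receptor, rose by log2 0.90 in vector cells (SE 0.15, adjusted p = 0.000738), and its difference of log2 0.39 in R132C cells did not pass (adjusted p = 0.0821). Socs3, a feedback inhibitor of the same pathway, rose by log2 0.44 in R132C cells (SE 0.14, adjusted p = 0.0330), and its difference of log2 0.31 in vector cells did not pass (adjusted p = 0.121). The Socs3 call was lost without R132C collagen replicate 1 or either R132C uncoated replicate (log2 0.32 to 0.57, adjusted p up to 0.261). In R132C cells 7 became 4 without R132C uncoated replicate 2. In vector cells 9 became 4 without vector collagen replicate 1 and 5 without vector collagen replicate 2 or vector uncoated replicate 1.

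Of 27 measured acute-phase and cytokine genes known as targets of C/EBP beta and C/EBP delta, 8 rose and 1 fell in R132C cells, and 10 rose and 1 fell in vector cells. The rises were 29.6% of the list in R132C cells and 37% in vector cells, against 13.6% and 15.1% of all genes, while the list medians were log2 0.13 and 0.083. The lipopolysaccharide-binding protein Lbp averaged 11.47 ± 0.22 with R132C and 11.65 ± 0.042 with vector on uncoated plates, against 8.77 ± 0.42 with R132C and 7.58 ± 1.13 with vector on collagen (log2, SD, n = 2 each). It rose by log2 2.71 in R132C cells (SE 0.41) and 4.07 in vector cells (SE 0.41). The copper carrier ceruloplasmin, Cp, rose by log2 2.88 in R132C cells and 2.97 in vector cells (SE 0.44 each), and the heme carrier hemopexin, Hpx, by log2 2.62 and 2.78 in R132C and vector cells (SE 0.25 each). Fibrinogen beta chain, Fgb, rose by log2 2.11 and 3.06 in R132C and vector cells (SE 0.31 each) from means of 4.75 and 4.50 on collagen, near background. The chemokine Ccl2 rose by log2 2.36 in R132C cells and 1.83 in vector cells (SE 0.33 each).

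The 1 gene of that list that fell was Ptgs2, the inducible cyclooxygenase, by 1.80 on the log2 scale in R132C cells and by 1.46 in vector cells (SE 0.26 each). With dim genes left out, the rises numbered 4 in R132C cells and 4 in vector cells, since several of these genes start near background. On collagen, Ccl2 was lower with R172K than with wild-type IDH2 (log2 difference -1.80, SE 0.33, adjusted p = 0.0195), as was Hpx (log2 difference -1.37, SE 0.25, adjusted p = 0.0194). Both calls were lost without either wild-type IDH2 replicate or R172K replicate 1 (adjusted p up to 0.263 for Ccl2 and 0.228 for Hpx). No gene of this list passed between R132C and wild-type IDH1.

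Among 23 measured hepatocyte genes known as C/EBP alpha targets, 5 rose and 1 fell in R132C cells, and 6 rose and none fell in vector cells. The rises were 21.7% of the list in R132C cells and 26.1% in vector cells, against 13.6% and 15.1% of all genes, and the list medians were log2 0.0019 and 0.11. Ttr, the thyroxine and retinol carrier transthyretin, averaged 7.41 ± 0.084 with R132C and 9.14 ± 0.25 with vector on uncoated plates, against 6.26 ± 0.038 with R132C and 6.08 ± 0.18 with vector on collagen (log2, SD, n = 2 each). Ppargc1a, a coactivator of energy metabolism, rose by log2 1.93 in R132C cells and 2.22 in vector cells (SE 0.27 each), and Apob, the protein of very low density lipoproteins, by log2 1.21 and 1.15 in R132C and vector cells (SE 0.29 each). The Apob call was lost in R132C cells without replicate 2 on either plate (adjusted p up to 0.102), and in vector cells without uncoated replicate 2 (adjusted p = 0.0801). Rbp4, the retinol carrier of plasma, rose by log2 0.99 in R132C cells and 0.78 in vector cells (SE 0.14 each). The 1 gene lower in R132C cells was G6pc, the last enzyme of glucose release, at group means of log2 3.46 to 3.79, below the lower quartile of the arrays, and its call was lost without any 1 of the 4 R132C cultures compared. The 5 rises became 3 without R132C uncoated replicate 2. Albumin, Alb, a defining hepatocyte product named outside the rule for genes, stayed near that quartile in all groups, with means of log2 4.34 to 4.93.

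Ugt2b5, a conjugating enzyme, rose by log2 0.82 in R132C cells (SE 0.22, adjusted p = 0.0138) and 3.64 in vector cells (SE 0.22, adjusted p = 3.84e-07). Adh1, an alcohol dehydrogenase, rose by log2 1.76 in vector cells (SE 0.20, adjusted p = 3.71e-05), and its difference of log2 0.025 in R132C cells did not pass (adjusted p = 0.951). For Ugt2b5, Ttr and Adh1 the plate response itself was smaller in R132C cells, by interaction terms of log2 -2.82, -1.91 and -1.73 (adjusted p = 0.000808, 0.000808 and 0.0178). The terms of Ugt2b5 and Ttr passed under all 16 and 17 alternatives. That of Adh1 ran from log2 -2.12 to -1.35 and was lost without vector collagen replicate 2, either R132C collagen replicate or R132C uncoated replicate 2 (adjusted p up to 0.112), and also with only the arrays compared. The Ugt2b5 rise in R132C cells was lost without R132C collagen replicate 1 or R132C uncoated replicate 2 (adjusted p up to 0.180). These 3 of the 23 were among the 31 genes called of 12393 for that difference. For Cebpa itself the term was log2 -0.78 and did not pass (adjusted p = 0.661). Its negative sign was that of all 31 called genes. Adh1 and Ugt2b5 start from means near or below background on collagen, so their folds are not exact.

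C/EBP alpha is known to restrain the cell cycle, and 19 growth arrest and E2F genes were read beside it. The list pools cell cycle inhibitors with genes of division. Of the 19, 8 fell and 2 rose in R132C cells, and 10 fell and none rose in vector cells, with medians of log2 -0.34 and -0.44. The 2 rises were those of the inhibitors Cdkn1b and Cdkn2a, by log2 0.29 and 0.45. Cdkn2c, another such inhibitor, fell by 0.48 on the log2 scale in vector cells. The falls were 42.1% and 52.6% of the list, against 12.3% of all genes in R132C cells and 14.2% in vector cells. Mki67, a marker of dividing cells, averaged 11.40 ± 0.19 with R132C and 10.54 ± 0.36 with vector on uncoated plates, against 12.42 ± 0.12 with R132C and 12.08 ± 0.43 with vector on collagen (log2, SD, n = 2 each). Tk1, Ccna2 and Cdk1, the thymidine kinase, cyclin A2 and the mitotic kinase, fell by 1.13, 1.05 and 0.80 on the log2 scale in R132C cells and by 1.54, 1.5 and 1.12 in vector cells. Myc, a growth factor-induced activator named outside the rule for genes, fell by 0.46 in R132C cells and 0.95 in vector cells on the same scale (SE 0.11 each). On uncoated plates, Mki67 was higher with R132C than with vector by log2 0.86 (SE 0.18, adjusted p = 0.0309), Ccna2 by log2 0.76 (SE 0.17, adjusted p = 0.0342) and cyclin D1, Ccnd1, by log2 0.49 (SE 0.083, adjusted p = 0.00827). These 3 calls were lost without vector uncoated replicate 1 or R132C uncoated replicate 1, and that of Ccna2 also without vector uncoated replicate 2 (adjusted p up to 0.367 for Mki67, 0.345 for Ccna2 and 0.128 for Ccnd1). The Myc call in R132C cells was lost without R132C collagen replicate 1 or R132C uncoated replicate 2 (adjusted p up to 0.125). The falls in R132C cells numbered 5 without R132C collagen replicate 1 or R132C uncoated replicate 2, and the 2 rises became 0 or 1 without any 1 of the 4 R132C cultures compared.

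Cebpg was read with 25 genes of the ATF4 response, the amino acid synthesis and transport programme in which C/EBP gamma is a partner. Of these, 7 fell and 2 rose in R132C cells, and 9 fell and 3 rose in vector cells, with medians of log2 -0.44 and -0.74. The falls were 28% of the list in R132C cells and 36% in vector cells, against 12.3% and 14.2% of all genes. Among the rises was Ddit3, also 1 of the bZIP relatives below, by log2 1.06 in vector cells (SE 0.37, adjusted p = 0.0452). That call was lost under cyclic loess, with array weights and with no intensity trend. In R132C cells the Ddit3 difference of log2 0.52 did not pass (adjusted p = 0.350). The mitochondrial folate enzyme Mthfd2 averaged 8.96 ± 0.35 with R132C and 8.70 ± 0.030 with vector on uncoated plates, against 10.93 ± 0.47 with R132C and 10.63 ± 0.68 with vector on collagen (log2, SD, n = 2 each). The asparagine synthetase Asns fell by 1.66 in R132C cells and 1.69 in vector cells on the log2 scale (SE 0.34 each), and the amino acid transporter Slc7a5 by 1.38 and 1.40 in R132C and vector cells (SE 0.27 each). Cth, an enzyme of cysteine synthesis, fell by 2.58 on the log2 scale in vector cells (SE 0.70, adjusted p = 0.0134), and its difference of log2 -1.90 in R132C cells did not pass (adjusted p = 0.0643). The Cth call was lost without vector collagen replicate 2 or vector uncoated replicate 1 (adjusted p up to 0.139). Atf4 itself differed by log2 -0.57 in R132C cells and -0.64 in vector cells (SE 0.37 each), and neither passed. Replicates on collagen differed widely for these genes, with an SD of 1.40 for Cth in vector cells, and the 7 falls in R132C cells became 4 without R132C collagen replicate 2 or R132C uncoated replicate 2. The 2 rises in R132C cells became 1 without either R132C collagen replicate or R132C uncoated replicate 2. The 3 in vector cells became 1 without vector collagen replicate 1 or vector uncoated replicate 1, and 5 without vector collagen replicate 2.

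Of 32 measured bZIP relatives, possible dimer partners among them, 5 rose and 5 fell in R132C cells, and 8 rose and 9 fell in vector cells, with medians of log2 0.0099 and -0.075. Rises and falls were 15.6% each in R132C cells, near the shares of all genes, and 25% and 28.1% in vector cells, against 15.1% and 14.2%. Fos, an immediate early AP-1 subunit, averaged 7.92 ± 0.44 with R132C and 7.64 ± 0.66 with vector on uncoated plates, against 9.92 ± 0.14 with R132C and 10.39 ± 0.19 with vector on collagen (log2, SD, n = 2 each). Dbp, a clock-controlled bZIP factor of liver, rose by log2 1.81 in R132C cells and 2.63 in vector cells (SE 0.28 each). Its clock counterpart Nfil3 fell by 1.03 in R132C cells and 1.15 in vector cells on the log2 scale (SE 0.17 each), and the stress factor Atf3 by 1.24 and 1.26 in R132C and vector cells (SE 0.32 each). The Atf3 calls were lost without replicate 2 on either plate (adjusted p up to 0.110 in R132C cells and 0.0905 in vector cells). Fosb fell by 1.46 on that scale in vector cells (SE 0.31, adjusted p = 0.00305), and its difference of log2 -0.68 in R132C cells did not pass. Without R132C uncoated replicate 2 the falls in R132C cells numbered 2 and the rises 3, and without R132C collagen replicate 1 both numbered 3. The rises also numbered 3 without R132C collagen replicate 2. In vector cells the rises numbered 5 without vector collagen replicate 1 or either vector uncoated replicate.

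Of 20 measured proteins that bind, modify or degrade C/EBP factors, 2 rose and 3 fell in R132C cells, and 1 rose and 5 fell in vector cells, with medians of log2 -0.054 and -0.17. The falls were 15% of the list in R132C cells and 25% in vector cells, beside 12.3% and 14.2% of all genes, and the rises 10% and 5%, beside 13.6% and 15.1%. Rbl1, a retinoblastoma relative, fell by 0.79 in R132C cells and 1.29 in vector cells on the log2 scale (SE 0.15 each). Cdk2, a kinase that C/EBP alpha is known to inhibit, fell by 0.58 in R132C cells and 0.68 in vector cells (SE 0.14 each). Smarca2, a chromatin remodelling partner, rose by log2 0.98 in R132C cells and 0.93 in vector cells (SE 0.25 each). The Smarca2 calls were lost without replicate 1 on either plate (adjusted p up to 0.136 in R132C cells and 0.128 in vector cells). The Cdk2 call in R132C cells was lost without either R132C collagen replicate or R132C uncoated replicate 2 (adjusted p up to 0.0785). The 3 falls in R132C cells became 1 without R132C uncoated replicate 2. The rises in R132C cells numbered 0 without R132C collagen replicate 1 or R132C uncoated replicate 1, and that in vector cells was lost without vector collagen replicate 1 or vector uncoated replicate 1.

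**Figure D4:**
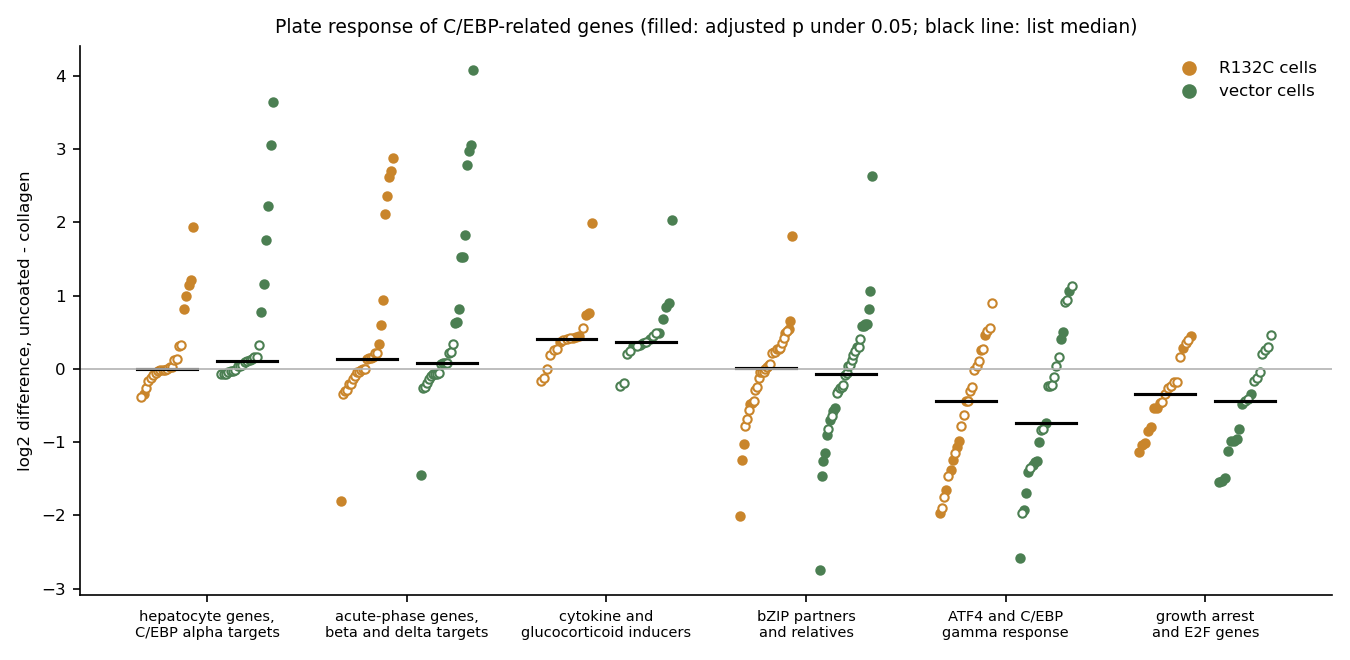
Difference between uncoated plates and collagen (log2) for every measured gene of 6 lists related to C/EBP factors, in R132C cells (orange) and vector cells (green). Each point is a gene, filled where its adjusted p was under 0.05, and black lines are list medians. The genes of cytokine and glucocorticoid signalling, labelled inducers, lie mostly above 0, and the ATF4 and cell cycle lists mostly below it. The C/EBP target lists hold a few large rises with medians near 0.

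C/EBP factors also act outside the liver, in fat and in myeloid cells, and these lists served for contrast. Of 16 measured adipocyte genes, 3 rose and none fell in R132C cells, and 4 rose and 2 fell in vector cells, with medians of log2 0.067 and 0.079. The rises were 18.8% of the list in R132C cells and 25% in vector cells and the falls in vector cells 12.5%, beside 13.6%, 15.1% and 14.2% of all genes. Dgat2, an enzyme of triglyceride synthesis, rose by log2 0.91 in R132C cells and 1.75 in vector cells (SE 0.16 each). Pparg, the adipocyte partner of C/EBP alpha, rose by log2 0.68 in vector cells (SE 0.13, adjusted p = 0.00169) and differed by log2 -0.27 in R132C cells (adjusted p = 0.164). Between R132C and vector on uncoated plates it was lower by log2 0.89 (difference -0.89, SE 0.13, adjusted p = 0.00324), a call lost without replicate 1 of either group (adjusted p up to 0.0546). Of 18 myeloid genes, 2 rose in R132C cells and none passed in vector cells, with medians of log2 -0.092 and -0.021, so that the rises were 11.1% of the list in R132C cells. These were S100a9 and S100a8, calgranulins also made by epithelia, which rose by log2 0.94 and 0.72 in R132C cells (SE 0.15 each). The S100a8 call was lost without R132C uncoated replicate 2 (adjusted p = 0.0673). The 2 adipocyte genes that fell in vector cells were Scd1, a fatty acid desaturase, and Lep, leptin, which lay below the lower quartile. Both calls were lost without vector collagen replicate 2 or vector uncoated replicate 1, and 1 without vector collagen replicate 1.

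Of 17 other liver transcription factors measured, 2 rose in R132C cells and 6 in vector cells, and none fell, with medians of log2 0.22 and 0.18. The rises were 11.8% of the list in R132C cells and 35.3% in vector cells, beside 13.6% and 15.1% of all genes. Hhex and Nr1h4, factors of early liver and of bile acid control, rose by log2 1.11 and 0.89 in R132C cells and by log2 0.85 and 0.76 in vector cells. Nr1i2, the xenobiotic receptor, rose by log2 1.28 in vector cells (SE 0.15) and differed by log2 0.35 in R132C cells (adjusted p = 0.119), from levels near or below the lower quartile. The 6 became 3 without vector uncoated replicate 1, and the 2 became 4 without R132C collagen replicate 1. On collagen, Hhex and Hnf4a were lower with R172K than with wild-type IDH2 (log2 differences -1.18 and -0.66, adjusted p = 0.00303 and 0.0162), while Cebpa was not called there. The Hhex call was lost without wild-type IDH2 replicate 2, and that of Hnf4a without either wild-type IDH2 replicate or R172K replicate 1 (adjusted p up to 0.0755 and 0.235 over all alternatives).

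The cells matched their label in part by the marker lists. All but 0 or 1 of 11 hepatoblast markers lay above the lower quartile in each group, and Afp, the fetal plasma protein, averaged log2 10.69 with R132C and 9.24 with vector on uncoated plates, against 11.52 with R132C and 10.64 with vector on collagen. Of 14 hepatocyte markers, 9 lay below that quartile in each uncoated group and 10 in each collagen group. Their summed intensity was 5836 to 10547 with R132C and 8868 to 11631 with vector on uncoated plates, against 3201 to 3945 with R132C and 4307 to 4780 with vector on collagen. Of 12 biliary markers, 5 rose and 1 fell in R132C cells and 7 rose and 3 fell in vector cells. The rises were 41.7% of the list in R132C cells and 58.3% in vector cells, beside 13.6% and 15.1% of all genes. The falls were 8.33% and 25%, beside 12.3% and 14.2%. The single fall in R132C cells was lost without any 1 of the 4 R132C cultures compared. Among the biliary markers Sox9, a bile duct and progenitor factor, rose by log2 1.98 in R132C cells and 2.02 in vector cells (SE 0.25 each). The keratin Krt7 fell by 0.55 in R132C cells and 0.84 in vector cells on the log2 scale, and Krt19 by 0.28 in vector cells. The summed intensity of the 12 was 34532 to 35033 with R132C and 33495 to 35754 with vector on uncoated plates. On collagen it was 34600 to 36272 with R132C and 34858 to 38202 with vector. Cebpa and Cebpd are also expressed in blood cells. Of 10 blood markers 1, Ptprc, rose, by log2 1.19 in R132C cells and 1.73 in vector cells (SE 0.28 each), a call lost in R132C cells without R132C collagen replicate 1 or R132C uncoated replicate 1. The summed intensity of these 10 was 284 to 329 with R132C and 333 to 382 with vector on uncoated plates, against 295 to 335 with R132C and 289 to 329 with vector on collagen. The macrophage marker Adgre1, named for its role, had means of log2 4.81 and 4.92 in R132C and vector cells on uncoated plates and 4.89 in both on collagen, and Itgam, a myeloid integrin, lay at log2 3.74 and 3.85 in R132C and vector cells on uncoated plates and 3.68 and 3.70 in R132C and vector cells on collagen. None of 12 endothelial markers passed on either side, and 1 of 14 mesenchymal markers fell in R132C cells and 2 in vector cells, where 1 call was left without either vector collagen replicate or vector uncoated replicate 1. The summed intensity of the 14 mesenchymal markers was 15387 to 15673 with R132C and 14475 to 15487 with vector on uncoated plates. On collagen it was 17905 to 18174 with R132C and 17655 to 17859 with vector. Of the 14, 7 lay below the lower quartile with R132C on uncoated plates, and 6 in each of the other groups just named. The part of the markers of any list in the C/EBP values was not tested.

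The genes most like each member were ranked by Pearson correlation over the 14 arrays, among 1247 or 1248 genes with a mean level of log2 6 or more and group means that spanned log2 1 or more. All 14 arrays share the plate difference, so r over the 10 collagen arrays alone stands beside each. For Cebpa the 5 closest were Rnf167 (r = 0.994, and 0.949 on collagen), Cpt1a (0.990 and 0.825), Ocln (0.985 and 0.681), Flcn (0.984 and 0.414) and Pink1 (0.983 and 0.695). Cpt1a, which admits fatty acids to mitochondria for oxidation, rose by log2 1.68 in R132C cells and 2.40 in vector cells, and Ocln, a tight junction protein, by log2 2.38 and 2.93 in R132C and vector cells. Rnf167 and Flcn act at the lysosome, and Pink1 marks damaged mitochondria.

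For Cebpd the 5 closest were Pkdcc (r = 0.968, and 0.858 on collagen), Mllt3 (0.966 and 0.798), Lbp (0.963 and 0.773), Bmp4 (0.962 and 0.825) and Atp11a (0.960 and 0.715). Lbp is the acute-phase gene described above. For Cebpg they were C9orf72 (0.908 and 0.924), the kinase Fyn (0.907 and 0.831), Trib3 (0.895 and 0.906), the cystine transporter Slc7a11 (0.889 and 0.939) and Ddit4 (0.882 and 0.834). Trib3, Slc7a11 and Ddit4 are known targets of the ATF4 response. For Cebpb the closest correlated less, with Dedd2 (0.811 and 0.792), Mitf (0.801 and 0.678), Acad11 (0.800 and 0.729), Pllp (0.795 and 0.753) and Itgb5 (0.793 and 0.769).

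Among the members, Cebpa and Cebpd correlated at r = 0.899 over the 14 arrays and at 0.052 over the 10 collagen arrays, where most Cebpd values are near background. Cebpa and Cebpg correlated at -0.748 over 14 arrays and -0.647 on collagen. Cebpb correlated with Cebpd at 0.701 over 14 arrays and 0.391 on collagen. With Cebpa its correlation was 0.582 over 14 arrays and -0.514 on collagen, where its sign turned. These are descriptions over cultures of 7 groups, with no test.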

How the data were processed

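RNA of 14 cultures, 2 in each of 7 groups, was measured on Affymetrix mouse expression arrays. The deposited intensity values are linear and were summarised with RMA, per the submitters' processing notes, so background correction and normalization were done before deposit. log2 of these values was taken. Of 22690 probe sets, 20380 carried a single gene symbol, 691 several and 1555 none, and 64 were controls; 12393 genes remained, each represented by its brightest probe set on average. R 4.3.3 and limma 3.58.1 were used to fit 7 group means to all arrays, with spreads moderated along a trend in intensity and 7 residual degrees of freedom, and p-values were adjusted by Benjamini-Hochberg over all genes within each comparison. The other probe sets of the members were fitted together with all non-control probe sets and adjusted over those. The script recovered known changes in simulated data.

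The precision is limited by 2 arrays per group, and the text of the series calls them separate cultures. Array medians ran from 134.5 to 147.7 and replicate correlations from 0.994 to 0.998. The members and lists were chosen with earlier results of these data known. From each list and comparison, up to 4 called genes with the largest change were named; where fewer than 2 passed, up to 2 of the brightest genes were; the few other named genes were chosen after their values were seen. Same-numbered cultures deviated together to a varying degree (correlations -0.041 to 0.487, median 0.156, with 8 of 21 pairs at or below 0.1). This does not settle whether the numbers pair the samples. The main fit left the numbers out, and a replicate block was run as an alternative. Under it the genes called for R172K against wild-type IDH2 went to 480, against 215. Alternatives tried were other probe sets, a filter on dim genes, cyclic loess, median centring, array weights, no intensity trend, a replicate block, only the arrays compared, and leaving out each array, or both R172K arrays, the last chosen after seeing the data. Promoter windows came from RefSeq on GRCm38.p6.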

Additional observations from a re-analysis of the deposited data

Results flagged for a closer look

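For 4 listed genes the response to uncoated plates differed between R132C and vector cells by limma's interaction term, adjusted over 12393 genes. Ugt2b5 had the largest of these terms at log2 -2.82 (adjusted p = 0.000808), from plate differences of log2 0.82 in R132C cells and 3.64 in vector cells. The term of Ttr was log2 -1.91 (adjusted p = 0.000808), from log2 1.15 in R132C cells and 3.06 in vector cells. The term of Adh1 was log2 -1.73 (adjusted p = 0.0178), from log2 0.025 in R132C cells and 1.76 in vector cells. These 3 are hepatocyte genes known as C/EBP alpha targets. Id3, a hepatoblast-enriched inhibitor of transcription factors, had a term of log2 -1.09 (adjusted p = 0.0112), from log2 0.090 in R132C cells and 1.18 in vector cells. In all 4 both uncoated R132C cultures were lower than both uncoated vector cultures. These cultures enter the term by which the 4 were picked, so this is no separate evidence. Leaving out 1 culture ended the call of Adh1 in 4 cases (adjusted p up to 0.112) and that of Id3 in 4 (adjusted p up to 0.0776), and those of Ttr and Ugt2b5 in none of those run. Fitting only the arrays compared also ended the calls of Adh1 and Id3. What lies behind these differences was not tested.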

How the results depend on the processing

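Cebpa was called in both plate comparisons under all 14 alternatives, at log2 1.70 to 2.20 in R132C cells and 2.62 to 2.84 in vector cells. Cebpd was called in all 13 alternatives that held it, at log2 0.91 to 2.03 in R132C cells and 1.34 to 2.79 in vector cells. The filter on dim genes left Cebpd out, and the low ends came from averaging its 2 probe sets. On its other probe set alone it was not called, at 0.24 in R132C cells and 0.28 in vector cells. That probe set also gave -0.018 for R132C and -0.14 for R172K against their wild-type forms, and 0.026 for wild-type IDH1 and 0.23 for wild-type IDH2 against vector. Averaging the probe sets of Cebpd gave 0.038 for wild-type IDH2 against vector. On probe set 1425261_at Cebpg passed at -0.62 in vector cells and -0.44 averaged over R132C and vector cells. On 1451639_at Cebpg was at 0.057 in R132C cells, 0.0022 averaged, 0.014 for R132C and 0.021 for wild-type IDH2 against vector. The other probe set of Cebpb gave 0.30 averaged and 0.032 for wild-type IDH1 against vector. Median centring gave Cebpb 0.29 averaged and 0.0051 for wild-type IDH1 against vector, and Cebpg 0.011 for R132C and 0.016 for wild-type IDH2 against vector. Cebpb passed at 0.31 in R132C cells and 0.36 in vector cells with only the arrays compared, and at 0.36 in vector cells without the R172K arrays. The cause of these changes was not tested. With 1 array left out, differences from vector on collagen ran as follows. For R132C they were -0.025 to 0.24 in Cebpa, -0.12 to 0.13 in Cebpb and -0.13 to 0.080 in Cebpg. For R172K they were -0.058 to 0.46 in Cebpb, -0.059 to 0.73 in Cebpd and -0.0095 to 0.20 in Cebpg. For wild-type IDH1 they were -0.22 to 0.15 in Cebpb, -0.77 to 0.018 in Cebpd and -0.15 to 0.33 in Cebpg. For wild-type IDH2 they were -0.20 to 0.062 in Cebpb, -0.55 to 0.23 in Cebpd and -0.12 to 0.097 in Cebpg. R132C against wild-type IDH1 gave -0.14 to 0.23 in Cebpb and -0.35 to 0.12 in Cebpg, and R172K against wild-type IDH2 gave -0.30 to 0.053 in Cebpa and 0.0092 to 0.53 in Cebpb. On uncoated plates R132C against vector gave -0.12 to 0.031 in Cebpb and -0.41 to 0.14 in Cebpd. The averaged plate difference of Cebpb was 0.27 to 0.39, and its plate response differed between R132C and vector cells by -0.18 to 0.079. All these values are log2 differences. A replicate block left Cebpa at 1.95 (adjusted p = 2.50e-05) in R132C cells and 2.73 (adjusted p = 8.92e-07) in vector cells, and changed no call of a member. Genes called went to 505 under the replicate block and 140 with only the arrays compared, against 296, for R132C over vector on uncoated plates. Without R172K replicate 2 the calls for R172K against wild-type IDH2 numbered 2332, and with array weights 9, against 215. In vector cells the plate calls numbered 2293 without vector collagen replicate 1, against 3628, and in R132C cells 1660 without R132C uncoated replicate 2, against 3215. Other background corrections were not run, because the values were already summarised. Levels near the lower quartile, those of Cebpd on collagen among them, limit what a fold can show.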
